A study of Mus musculus with 3 samples.

Results

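Cytosolic ribosomal protein genes encode the proteins of the ribosome that translates nuclear-encoded mRNA. Members were chosen by symbol: Rpl or Rps followed by a number with its usual letter or paralogue suffix, plus Rplp0, Rplp1, Rplp2 and Rpsa, with pseudogenes left out. The rule found 83 of the 31253 genes listed for the skin libraries, 48 of the large subunit, 32 of the small subunit and 3 of the acidic stalk. The rule used symbols only, so the levels below played no part in it. UMIs were counted for 82 members, Rpl10l was at 0 in both libraries, and 80 members had at least 1000 UMIs.

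A ribosome is assembled in the nucleolus from rRNA and, for most of its proteins, equal numbers of each, and surplus single proteins are degraded. The mRNAs of these proteins are short, abundant and mostly of the TOP class, which begins with a run of pyrimidines and whose translation is switched together by mTOR signalling. In skin and its immune cells they are abundant in growing keratinocytes and lymphocytes and scarce in mature granulocytes.

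The study asked how psychological stress changes inflamed mouse skin. Both skin libraries came from mice treated with MC903, a vitamin D analogue (calcipotriol) that causes a dermatitis resembling atopic eczema, so that no untreated skin enters the comparison, and no library of the ethanol-treated mice that the protocol names is analysed here. The control library (1 library) came from mice given MC903, and the RHS library (1 library) from mice given RHS as well, an abbreviation that the labels do not expand. Both held skin cells selected with CD45 beads, dissociated and captured in the microwells of the BD Rhapsody system, and the number, age, strain and sex of the mice behind each were not given in the sources used here. Nuclei of sympathetic ganglia, pooled from several mice, form a further library that was not compared with skin.

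The filters kept 12577 control and 12953 RHS cells, with medians of 3233 and 3101 UMIs per cell and 53563940 and 51553807 UMIs in all. The skin libraries shared 5 cell barcodes. Clustering gave 19 named classes, written as X-like because the names rest on marker genes, and 4 unnamed clusters large enough to compare. CD45 marks blood-derived cells, yet keratinocyte-like, fibroblast-like, endothelial-like, mural-like and melanocyte-like cells were present in both libraries. With 1 library per group no difference between groups could be tested. The intervals below are 95% exact binomial intervals, which cover counting error only, and any difference between libraries in handling or sequencing cannot be told apart from RHS.

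Ribosomal protein genes took 12.5% of all UMIs for control and 11.2% for RHS cells, a ratio of 0.898 (0.897 to 0.899). The large-subunit genes went from 5.83% to 5.35%, the small-subunit genes from 6.31% to 5.62% and the 3 stalk genes from 0.318% to 0.221%. The ratio was 0.918 for the large subunit, 0.890 for the small subunit and 0.695 for the stalk. The libraries also held the classes in different proportions. The control library's class levels weighted by the RHS library's proportions gave 11.3%, and the RHS library's class levels weighted by the control's gave 12.4%. Over all kept cells 6 of 82 members were higher in the RHS library, where 35.1% of all 13592 genes tested were, and their median log2 ratio was -0.11 against -0.10 for all genes.

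The summed share ordered the classes alike in both libraries (Spearman's rho 0.979 over 19 classes, which share the libraries and the genes). It was highest in keratinocyte-like cells, the dividing and differentiating cells of the epidermis, at 20.0% for control and 20.2% for RHS cells. Next came a mixed class of group 2 innate lymphoid and alpha-beta T-like cells (17.5% and 17.2%), alpha-beta T-like cells (16.1% and 16.3%) and regulatory T-like cells (15.2% and 15.3%). These T-like and innate lymphoid classes stood above every myeloid class, of which Langerhans-like cells (13.2% and 12.6%) and the mixed cDC1 and cDC2-like class (13.02% and 13.00%) were the highest. Gamma-delta T-like cells (11.9% and 11.4%) stood below those. Macrophage-like cells, which engulf debris and pathogens, held 7.39% and 7.38%. Granulocyte-like and mast-like cells were lowest, with basophil-like cells at 6.15% and 5.05%, mast-like cells at 5.32% and 5.25%, and neutrophil-like cells, which no longer divide, at 2.89% and 2.90%. The highest class held 6.92 times the share of the lowest in the control and 6.96 times in the RHS library. The order differed with depth. In cells of 500 to 1500 UMIs keratinocyte-like cells held 9.60% and 11.6%, below alpha-beta T-like cells at 14.9% and 15.6%. In cells of 1500 to 6000 UMIs keratinocyte-like cells held 20.3% and 20.1%, against 16.3% and 16.4%. Over the 19 classes the share had a Spearman's rho of 0.75 and 0.73 with the mitochondrial share, whose part was not tested.

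**Figure D1:**
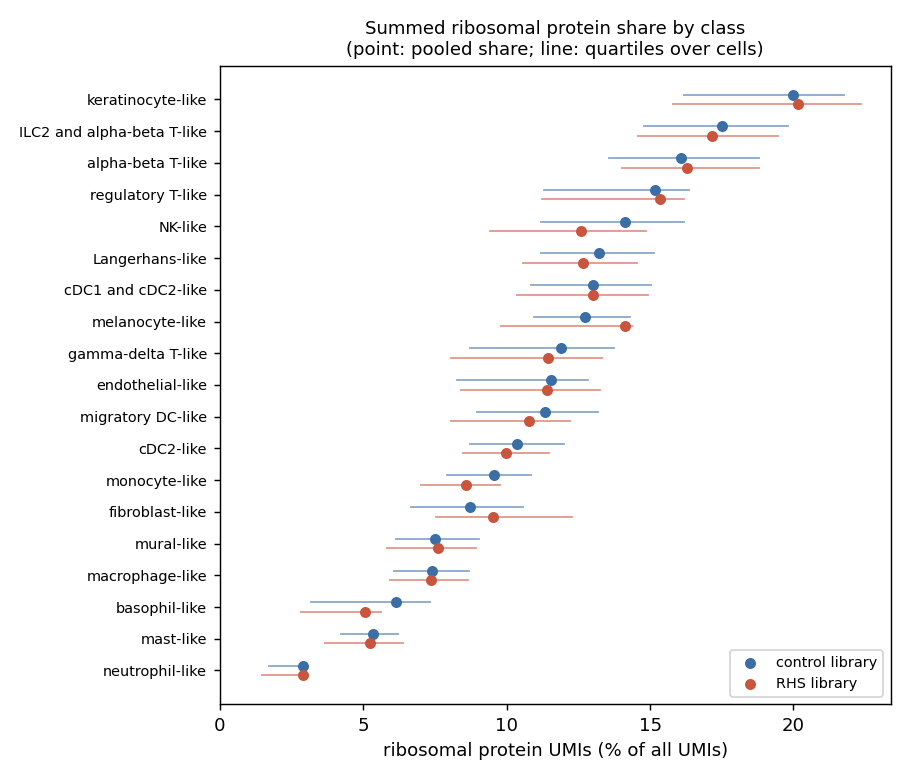
Summed ribosomal protein UMIs as a percentage of all UMIs (x axis) in the 19 named classes (y axis), for the control and the RHS library; points are pooled shares and lines the quartiles over cells. Keratinocyte-like cells sit at 20.0% and 20.2% and neutrophil-like cells at 2.89% and 2.90%, and in 17 of the 19 classes each library's point lies inside the other's quartiles, basophil-like and neutrophil-like cells being the exceptions. In neutrophil-like cells each point also lies above its own library's upper quartile (2.87% and 2.79%), and the ratio between the libraries is 1.003.

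Within classes the summed share differed little between the libraries: it was higher in the RHS library in 7 of 19 classes and lower in 12, with a median ratio of 0.987. The counting interval lay above 1 in 5 classes, below 1 in 9 and held 1 in the other 5. Under the alternatives tried the direction changed at least once in 12 of the 19 classes. Among these alternatives was leaving out 9 members that these same ratios chose. In the mixed innate lymphoid and T-like class and in mast-like cells only that alternative changed the direction. The lowest ratios were in basophil-like cells (0.822, 0.810 to 0.834), NK-like cells (0.890, 0.881 to 0.899) and monocyte-like cells (0.897, 0.891 to 0.904). Most members were lower there. In basophil-like cells 4 of 73 members were higher in the RHS library (45.1% of all genes tested there), in NK-like cells 12 of 78 (50.7% of all genes) and in monocyte-like cells 12 of 79 (54.2% of all genes).

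The highest ratios were in melanocyte-like cells (1.11, 1.09 to 1.13) and fibroblast-like cells (1.09, 1.08 to 1.103). In fibroblast-like cells 58 of 78 members were higher in the RHS library, against 61.1% of all genes tested there. The fibroblast-like ratio was 1.15 (1.13 to 1.17) in cells of 1500 to 6000 UMIs. It was 0.997 (0.981 to 1.013) in cells of 6000 or more, on 38 control and 42 RHS cells. In melanocyte-like cells 50 of 77 members were higher. Of all genes tested there 12.4% were, but the 2 shares are not alike in measure. The class held 796772 control and 133298 RHS UMIs, so the minimum of 50 UMIs admitted genes at a lower CPM through the control library. The melanocyte-like value rests on 53 RHS cells with a median of 1893 UMIs, against 162 control cells with 4400, and the median share per cell went the other way, from 12.8% to 12.3%. Keratinocyte-like cells had a pooled ratio of 1.010 (1.007 to 1.013), but each of its clusters had a ratio below 1, at 0.981 (0.977 to 0.984) where Krt6a and Krtdap led and 0.998 (0.990 to 1.006) where Krt16 and Dlx3 led. The median share per cell went the other way in both, from 19.0% to 19.2% and from 18.6% to 19.9%. The cluster led by Krt16 and Dlx3 held 523 of 1171 keratinocyte-like cells in control and 51 of 463 in RHS skin. Among the unnamed clusters the ratio was 1.02 where Elovl6 and Fa2h led, 1.14 where Cfd and Igkc led, 1.04 where Slc26a7 and Rasd1 led and 0.683 where Syne1 and Prg2 led, the last on 68 control and 96 RHS cells.

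Several measures of the cells moved beside these ratios, and their part was not tested. The median UMIs per cell were lower in the RHS library in 19 of 19 classes, the mitochondrial share was higher in 14 of 19, and the nuclear-retained transcripts Malat1 and Neat1 were lower in 17 of 19. Immediate early and heat shock genes, which dissociation can induce, were higher in sum in 17 of 19 classes, with ratios from 0.720 in alpha-beta T-like cells to 2.63 in melanocyte-like cells.

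Single members differed far more than their sum. Of 82 members 13 were lower by at least 1.5-fold in the RHS library over all kept cells and none was higher by as much, where 17% of all genes tested passed 1.5-fold either way, so that the share of members was close to that of all genes. Over the 19 classes, 172 of 1465 pairs of a member and a class (11.7%) passed 1.5-fold, 169 of them lower and 3 higher, against 10.7% of 81420 pairs over all genes either way, again a like share. Both comparisons count changes in either direction. The shares of all genes and pairs that were lower by as much are not given here, so the direction of the members cannot be set against them. The pairs were held by 17 members, and 63 of the 80 members measured in at least 5 classes passed in none. A set of 9 members, Rpl14, Rps15, Rpsa, Rpl28, Rps14, Rpl19, Rpl36, Rpl8 and Rpl29, was lower by at least 1.5-fold in most of the classes where each was tested. The same was true of 2.79% of 6519 genes, and 11.25% of the members. In the other direction 0 of 80 members and 0.153% of all genes were higher in most classes. The 9 accounted for 149 of the 172 pairs and were higher in the RHS library in 0 of their 154 pairs. They were grouped by these ratios, so what follows on their levels is a description.

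Rpl14, a protein of the large subunit, had the lowest ratio of all members. Its level, in UMIs per 1000000 UMIs of the library or class (CPM), was 279 for control and 62.1 for RHS cells, with a ratio of 0.222 (0.214 to 0.231). In keratinocyte-like cells Rpl14 was at 478 and 121 CPM, in cDC2-like cells at 210 and 50.02, in macrophage-like cells at 137 and 34.8, and in regulatory T-like cells at 361 and 97.7. The control was thus higher in epithelial, myeloid and lymphoid cells alike, and in all 18 classes tested the log2 ratio lay between -2.41 in NK-like and -1.60 in mast-like cells.

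Rps15, a small-subunit protein near the decoding site, was at 550 and 160 CPM, a ratio of 0.291 (0.284 to 0.299). Its log2 ratio ran from -1.92 in migratory DC-like to -1.42 in fibroblast-like cells and passed 1.5-fold in 18 of 18 classes. Rpsa, a small-subunit protein also known as the laminin receptor, was at 291 and 94.1 CPM. In regulatory T-like cells, where the control level of Rpsa was highest, it was at 571 and 204 CPM. Rpsa passed in 17 of 17 classes, from -1.78 in Langerhans-like to -0.89 in fibroblast-like cells. Every class was lower in the RHS library for both genes.

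Rpl28, of the large subunit, was at 1316 and 437 CPM (ratio 0.332) and passed in 19 of 19 classes. Rps14, of the small subunit, whose loss causes a form of human anaemia, was at 2208 and 814 CPM (0.369) and also passed in 19 of 19. Many UMIs stand behind these values: in keratinocyte-like cells alone Rps14 had 28377 UMIs for control and 3821 for RHS cells, or 3497 and 1459 CPM. In neutrophil-like cells, the class with the lowest summed share, Rps14 was at 560 and 177 CPM from 138 and 38 UMIs.

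Rpl19 (414 and 193 CPM, ratio 0.466) and Rpl8 (574 and 271 CPM, 0.473), the latter a large-subunit protein close to the peptidyl transferase centre, each passed in 18 of 18 classes. Rpl36 was scarce at 33.9 and 15.6 CPM and passed in 9 of 10 classes. Rpl29 was the least lowered of the set, at 165 and 95.2 CPM (0.576), and passed in 13 of 17. The members just outside the set were Rplp2, which passed in 8 of 19 classes, and Rps19 and Rps9, in 4 of 15 and 4 of 19. Rps19, the gene most often mutated in Diamond-Blackfan anaemia, was at 154 and 98.5 CPM.

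**Figure D2:**
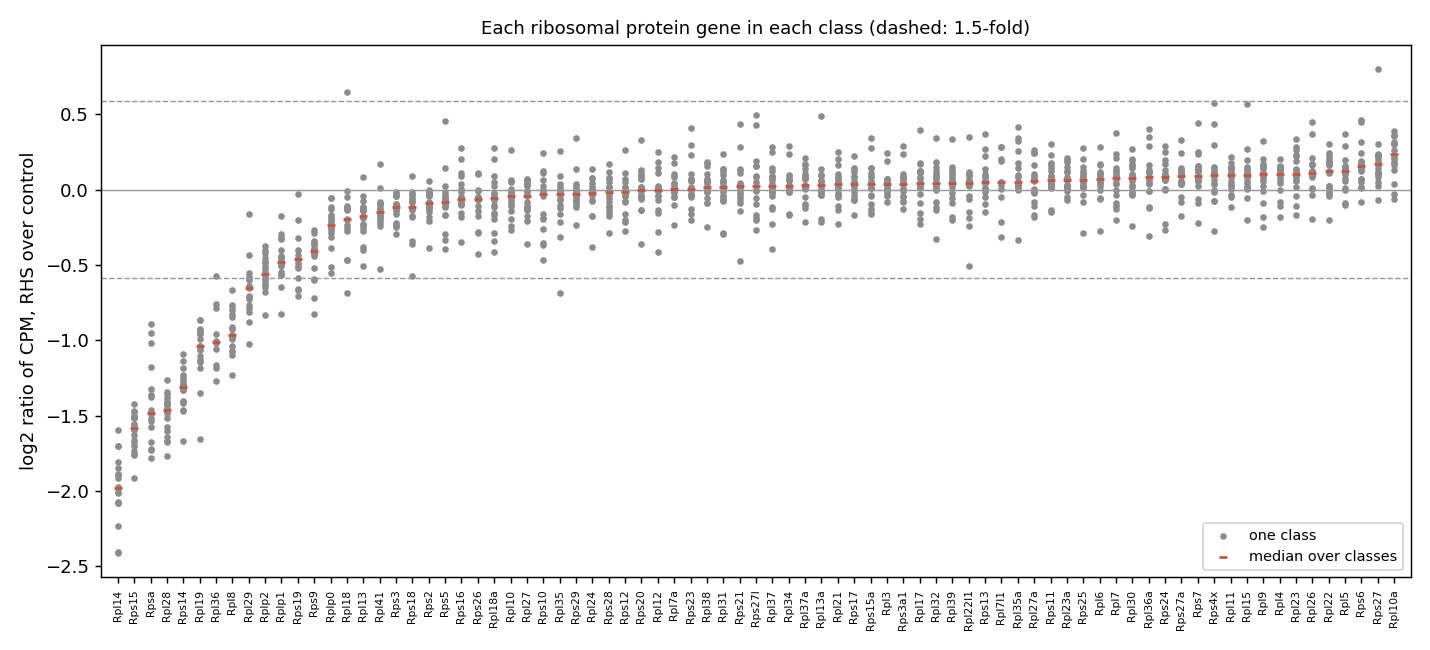
Log2 ratio of CPM, RHS over control (y axis), for 79 of the 80 members measured in at least 5 classes, ordered by their median (x axis); each grey point is 1 class, the red bar is the median over classes and the dashed lines mark 1.5-fold. The 9 lowest members lie below 0 in every class tested, from a median of -1.98 for Rpl14 to -0.65 for Rpl29, while most members stay close to 0. Rplp0, Rplp1, Rplp2, Rps9, Rps19 and Rps3 also lie below 0 in every class tested.

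The stalk proteins Rplp0, Rplp1 and Rplp2, which recruit elongation factors to the ribosome, were each lower in the RHS library. Rplp2 was at 1315 and 812 CPM (ratio 0.617, 0.610 to 0.625), Rplp1 at 507 and 333 (0.657, 0.644 to 0.669) and Rplp0 at 1357 and 1066 (0.785, 0.777 to 0.794). The log2 ratio of Rplp2 lay between -0.83 in basophil-like and -0.38 in gamma-delta T-like cells, that of Rplp1 between -0.83 in monocyte-like and -0.18 in fibroblast-like cells, and that of Rplp0 between -0.55 in basophil-like and -0.06 in fibroblast-like cells. All 3 were lower in every class tested.

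Most of the other members kept close to the sum. The median over classes of a member's log2 ratio less that of the summed members was within 0.1 of 0 for 45 of 80 members, and it spanned -1.96 to 0.28. The highest was Rpl10a, a large-subunit protein, at 471 and 494 CPM over all cells, higher in 16 of 18 classes with a median log2 ratio of 0.24. Rps27 (median 0.17) and Rps6 (0.16), the small-subunit protein that S6 kinase phosphorylates, were each higher in 18 of 19 classes. Rpl5, which carries 5S rRNA into the ribosome and binds Mdm2 when free, had a median of 0.12, Rpl22 of 0.12, Rpl26 of 0.11 and Rpl36a of 0.08. None of these 7 was past 1.5-fold in more than 1 class. The pairs past 1.5-fold upwards included Rps27 in melanocyte-like cells (2071 and 3608 CPM) and Rpl18 in fibroblast-like cells (76.9 and 121 CPM).

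Leaving out the 9 members, which these same ratios chose, turned the direction of the sum in the median class. The other 74 members went from 11.88% to 10.98% of UMIs over all kept cells (0.924, 0.923 to 0.925), but were higher in the RHS library in 12 of 19 classes, with a median ratio of 1.02 and a range from 0.843 in basophil-like to 1.14 in melanocyte-like cells. The summed 9 had ratios from 0.361 in monocyte-like to 0.444 in melanocyte-like cells. In the 4 unnamed clusters the summed 9 had ratios from 0.389 to 0.484.

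Base composition, length and position were compared between the 9 members and the others. Every member was matched to its transcript with the longest coding sequence in GENCODE M21 (mouse build GRCm38). G and C made up 52.6 to 61.3% of the coding sequence of the 9, median 56.6%, and 39.6 to 58.9% of that of the other 71 members measured in at least 5 classes, median 51.7%. Across these 80 members the median log2 ratio less the sum had a Spearman's rho of -0.73 with coding G and C content, and of 0.05 with transcript length. It was weaker, at -0.49, with the G and C content of the whole transcript and, at -0.42, with that of its last 300 bases. Across 6388 other genes the rho of the median log2 ratio was -0.22 with coding, -0.26 with whole-transcript and -0.26 with last-300-base G and C content. The genes share the libraries and are not independent, so these are descriptions. The set held 6 of 21 members with 55 to 60% coding G and C, the 1 member at 60% or more, 2 of 36 members at 50 to 55% and 0 of 18 at 45 to 50%. Among the other genes 5.88% at 55 to 60%, 7.1% at 60% or more, 1.97% at 50 to 55% and 0.774% at 45 to 50% were lower in most classes.

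Some members with as many G and C letters had ratios near 1. Rps29, at 58.5%, had a median log2 ratio of -0.03, and Rpl18, at 58.9%, of -0.19, while Rpl14, with the lowest ratio, was at 52.6%. Whether base composition accounts for the ratios was not tested. Printed below are the last 90 coding bases of the 4 members with the lowest ratios and of 3 picked from those with median ratios above 1. G and C are in capitals and the stop codon is at the end. The sequences are from GENCODE M21 transcripts and are written 5′ to 3′.
Rpl14: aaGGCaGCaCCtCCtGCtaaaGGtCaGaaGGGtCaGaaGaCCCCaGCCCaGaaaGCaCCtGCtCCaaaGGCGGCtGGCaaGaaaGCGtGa
Rps15: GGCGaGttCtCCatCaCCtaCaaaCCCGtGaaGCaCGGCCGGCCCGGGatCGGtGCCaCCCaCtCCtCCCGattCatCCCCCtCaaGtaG
Rpsa: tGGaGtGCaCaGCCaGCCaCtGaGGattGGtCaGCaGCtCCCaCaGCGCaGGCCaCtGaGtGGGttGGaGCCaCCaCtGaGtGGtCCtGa
Rpl28: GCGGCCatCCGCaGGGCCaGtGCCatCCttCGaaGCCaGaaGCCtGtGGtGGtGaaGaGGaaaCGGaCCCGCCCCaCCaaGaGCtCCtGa
Rps27: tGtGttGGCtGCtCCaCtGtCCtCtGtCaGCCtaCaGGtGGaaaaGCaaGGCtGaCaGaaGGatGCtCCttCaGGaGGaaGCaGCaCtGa
Rps6: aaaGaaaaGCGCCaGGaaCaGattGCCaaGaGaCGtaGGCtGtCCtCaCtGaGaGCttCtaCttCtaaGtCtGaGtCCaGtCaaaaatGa
Rpl5: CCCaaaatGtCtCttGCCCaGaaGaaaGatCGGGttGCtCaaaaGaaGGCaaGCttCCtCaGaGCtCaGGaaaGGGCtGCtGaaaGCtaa

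These stretches held 57.8% G and C in Rpl14, 63.3% in Rps15, 62.2% in Rpsa and 64.4% in Rpl28. They held 54.4% in Rps27, 45.6% in Rps6 and 48.9% in Rpl5. Rpl10a, which had the highest median and is not printed, held 50%. Both printed groups were picked by their ratios. The remaining members were not measured over these bases, so no share over all members stands beside the difference.

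**Figure D3:**
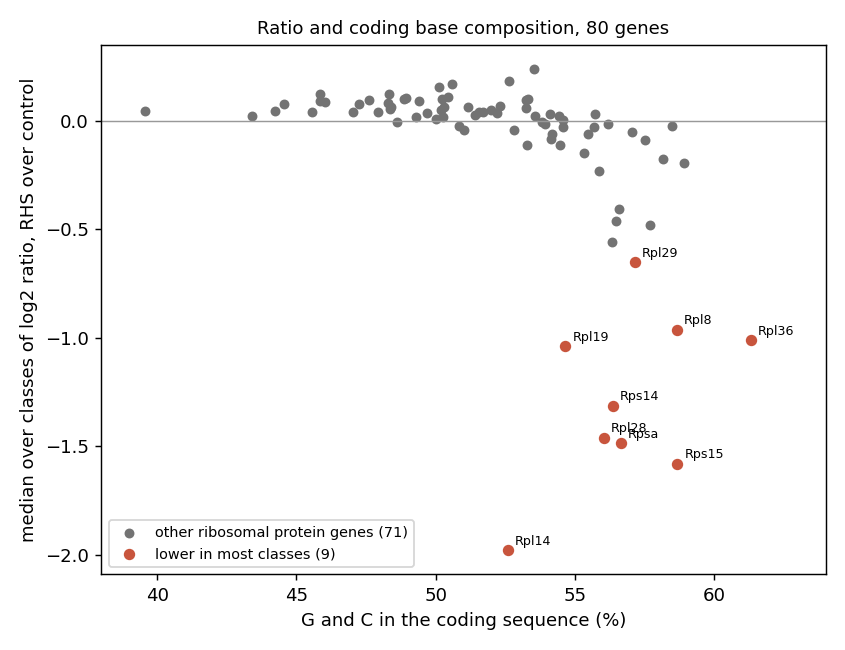
Percentage of G and C in the coding sequence (x axis) against the median over classes of the log2 ratio, RHS over control (y axis), for 80 members; red points are the 9 members lower in most classes and grey points the other 71. The points below -0.6 all lie at 52.6% or above, and members above that value also occur near 0, such as Rps29 at 58.5% and -0.03.

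Ribosomal protein genes as a class share features at their start. Promoters of 63 members were matched by symbol in the RefSeq table (GRCm38.p6, 250 bases before to 50 after the annotated start). A C followed by at least 4 C or T letters stood exactly at the annotated start in 13 of 63 members (20.6%), against 3.01% of 27025 genes. A C followed by at least 5 C or T letters lay within 20 bases of the start in 41 of 63 (65.1%), against 32.8%. Searched on both strands, CCGGAAG was present in 26 of 63 (41.3%) against 9.93% of genes, GGGCGG in 39 (61.9%) against 38.2%, AAGATGGC in 6 (9.52%) against 3.19%, and TATAAA in 7 (11.1%) against 15.7%. CCGGAAG and AAGATGGC can overlap by 3 letters. Of the 9 lower members 5 were matched and 4 had the run within 20 bases, as had 37 of the other 58. These are matches of letters, not sites. The 30 bases around the start of 3 members that were lower or in the stalk and 3 that were not are printed from 10 bases before the start, with the pyrimidine run that opens the transcript in capitals.
Rpl14: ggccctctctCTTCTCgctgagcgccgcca
Rpl28: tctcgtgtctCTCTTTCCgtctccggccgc
Rplp2: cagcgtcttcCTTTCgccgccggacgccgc
Rps6: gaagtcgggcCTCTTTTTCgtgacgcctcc
Rps27: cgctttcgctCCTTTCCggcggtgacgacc
Rpl15: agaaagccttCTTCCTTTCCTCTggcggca

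These windows are chr9:120571507-120571536 on the plus strand for Rpl14, chr7:4792955-4792984 on the plus strand for Rpl28, chr7:141447641-141447670 on the plus strand for Rplp2, chr4:86857348-86857377 on the minus strand for Rps6, chr3:90213629-90213658 on the minus strand for Rps27, and chr14:18270967-18270996 on the minus strand for Rpl15 (GRCm38.p6). Runs of this kind thus open transcripts with low ratios (Rpl14, Rpl28) and with ratios near or above 1 (Rps6, Rps27). The 83 members lie on 19 chromosomes, with 14 on chromosome 7 and 4 on the X, and the 9 lower members on 7 chromosomes.

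Members differed widely in level. UMIs count captured molecules, so levels were not divided by length. Rps12 was the highest, at 4072 CPM for control and 3483 for RHS cells, followed by Rps27a, which is made as a fusion with ubiquitin (3229 and 3072), Rps29 (3070 and 2978), Rpl23 (2960 and 2986), Rps4x (2869 and 2733), Rps28 (2905 and 2690), Rps27 (2775 and 2813) and Rps23 (2888 and 2676). These 8 took 20.4% of all member UMIs. The lowest with any UMIs were the paralogues Rpl3l, known from heart and skeletal muscle, with 66 UMIs in each library, and Rpl39l, known from testis, with 437 and 274. Rpl36 (33.9 and 15.6 CPM), Rpl7l1 (52.9 and 50.1), Rps19 (154 and 98.5), Rpl29 (165 and 95.2), Rpl18 (152 and 127) and Rps10 (153 and 135) followed. Coding G and C content had a Spearman's rho of -0.30 with control levels and -0.41 with RHS levels over the 80 members.

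The part of the ribosomal protein UMIs that a member took was compared across classes. With both libraries summed, the highest class held a median of 1.64 times the share of the lowest over 80 members. Rpl7 was the steadiest (1.23 times, from 1.51% in Langerhans-like to 1.86% in mural-like cells), followed by Rpl27a (1.26), Rpl34 (1.33) and Rpl9 (1.34). The 8 with the largest values were Rps27l (11.8), Rpl14 (5.43), Rplp1 (3.74), Rpl7l1 (3.70), Rps9 (3.46), Rpl36 (2.93), Rpsa (2.93) and Rpl13a (2.83). Several of these rest on few UMIs in 1 class: 5 of Rpl14, 25 of Rplp1 and 10 of Rpl7l1 in neutrophil-like cells, and 16 of Rpl36 in fibroblast-like and 27 in mast-like cells. Without the neutrophil-like class, a comparison added after seeing the data, the value was 2.35 for Rpl14, 2.86 for Rplp1, 2.87 for Rpl7l1 and 1.97 for Rps9, and 6 of the 8 stayed among the 8 largest, Rpl14 and Rps9 being the exceptions. Classes hold the libraries in different proportions, and Rpl14, Rpsa and Rpl36 differed between libraries, so their order in the sum also carries that difference.

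Rps27l, a paralogue of Rps27 that p53 induces, varied most. It made up 0.715% of member UMIs in migratory DC-like cells, dendritic cells on their way to the lymph node, and 0.0608% in alpha-beta T-like cells. The control and RHS levels of Rps27l were 796 and 793 CPM in migratory DC-like cells, 379 and 378 in cDC2-like cells and 287 and 304 in Langerhans-like cells. They were 91.5 and 102 in alpha-beta T-like cells, 90.4 and 84.6 in gamma-delta T-like cells and 51.2 and 43.5 in basophil-like cells. The dendritic classes were above every lymphoid class in each library. Its partner Rps27 varied 2.81 times and in another order, with 4.98% of member UMIs in neutrophil-like, 4.03% in basophil-like and 1.77% in melanocyte-like cells.

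Rps9, a small-subunit protein, held 4.88% of member UMIs in neutrophil-like cells and 1.41% in endothelial-like cells. In neutrophil-like cells it was at 5.98% for control and 3.63% for RHS cells, from 425 and 226 UMIs, above every other class in each. Monocyte-like cells (3.13% and 2.31%) and mast-like cells (3.03% and 2.34%) came next for Rps9. Rplp1 was at 0.770% and 0.572% in mast-like cells and at 0.310% and 0.195% in monocyte-like cells. Rpl13a, which also has a role outside the ribosome in silencing inflammatory mRNAs, was highest in alpha-beta T-like cells (0.226% and 0.218%) and regulatory T-like cells (0.196% and 0.194%), and low in macrophage-like (0.0876% and 0.0915%) and cDC2-like cells (0.0798% and 0.0846%). Rpsa was highest in regulatory T-like cells of the control library (0.376%) and in migratory DC-like cells in the RHS library (0.151%). Rpl14 ranged in the control from 0.0703% in neutrophil-like cells, on 5 UMIs, to 0.295% in mural-like cells.

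**Figure D4:**
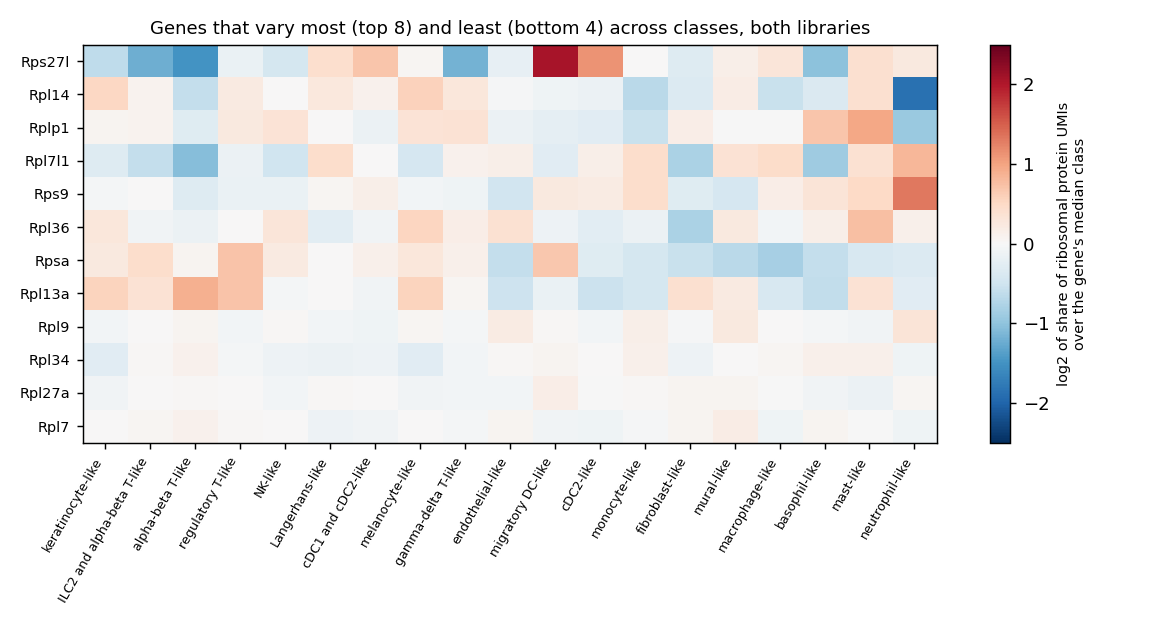
Share of ribosomal protein UMIs of the 8 members with the largest range and the 4 that varied least (y axis) in each of the 19 classes (x axis), both libraries summed, as log2 over the member's median class. Rps27l is high in migratory DC-like cells and low in alpha-beta T-like cells, Rps9 is high in neutrophil-like cells, and Rpl7 and Rpl27a are almost flat; the low neutrophil-like value of Rpl14 rests on 5 UMIs.

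Paralogue pairs were compared member by member. Rpl39l reached 71.9 and 66.7 CPM among fibroblast-like cells (43 and 58 UMIs) and 52.6 and 28.6 in mural-like cells (20 and 17 UMIs), and at most 9.24 CPM in every other class in either library, while Rpl39 was highest in keratinocyte-like cells at 4021 and 4332 CPM. Rpl22l1 was 0.551% and 0.490% of member UMIs in mural-like cells and 0.216% and 0.185% in basophil-like cells. Rpl22, which T cell development needs, exceeded Rpl22l1 in CPM in each of the 19 classes and in each library, for example at 1170 and 658 CPM in keratinocyte-like cells of the control. Rpl7l1 was at 80.1 and 69.1 CPM in Langerhans-like cells and 32.5 and 33.1 in alpha-beta T-like cells, where Rpl7 was at 1951 and 1946 and at 2689 and 2922. Rpl3l had at most 17 UMIs in any class of a library, against 57547 and 51071 for Rpl3 over all cells. Rps4l was not analysed here.

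Other genes of translation, in lists by function, were counted the same way. Over all kept cells 1 of 23 other TOP mRNAs and ribosome-linked genes, 4 of 25 ribosome biogenesis genes, 5 of 77 mitochondrial ribosomal protein genes and 0 of 21 initiation factors were lower by at least 1.5-fold, and none of them was higher by as much, beside 17% of all genes past 1.5-fold either way. The median log2 ratios of these lists were -0.07, -0.26, -0.10 and -0.06, beside -0.10 over all genes. Within classes the summed TOP mRNAs outside the members were higher in the RHS library in 16 of 19 classes, initiation factors in 15, mitochondrial ribosomal proteins in 12 and biogenesis genes in 9. Lower in most of the classes tested were 1 of 23 TOP mRNAs (Eef2, the elongation factor that moves the ribosome along), 0 of 22 biogenesis genes, 0 of 56 mitochondrial ribosomal proteins, 0 of 21 initiation factors and 2 of 70 nuclear genes of oxidative phosphorylation (Ndufa13 and Ndufa7), beside 2.79% of all genes. Of 16 genes of translation control, among them Mtor and Larp1, none passed 1.5-fold over all kept cells, 4 were higher, and their median was -0.14.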

How the data were processed

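Single-cell RNA counts of CD45 bead-selected skin cells were analysed for 1 control and 1 RHS library. The authors deposited unnormalized whole-number UMI counts for each gene and barcode, per the file headers. The submitters' processing notes name the build GRCm39 and the tools Cell Ranger, Seurat 5.1.0 and R 3.6.0, without saying which step each served. For the skin reads the counting program was not given in the sources used here. How reads shared with near-identical pseudogenes were counted is likewise not given, and members with such copies are uncertain to that extent.

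Barcodes under 200 genes or above 20% mitochondrial UMIs were dropped, which removed 54 and 92 and then 202 and 179 barcodes from the control and RHS libraries. Scrublet, run in scanpy 1.11.5 at an expected 6%, removed 146 (1.15%) and 115 (0.880%) as doublets, so that undetected doublets remain. Counts were scaled to 10000 per cell and log-transformed, and 2000 variable genes, members left out, entered 30 principal components, 15 neighbours and Leiden clustering at resolution 1 (27 clusters, 22 named). A name needed at least 3 markers in at least 5% of cells and 2-fold over the mean of the other clusters. Each class needed 50 cells per library.

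Raw UMIs were summed per class and library. A gene was compared where the higher library had at least 50 UMIs, and was called where CPM differed by at least 1.5-fold. Where a library held fewer UMIs of a class, this minimum stood at a higher CPM in it. The set of 9 members and the medians over classes needed at least 5 classes. No p-value was computed, since each group is 1 library. Ratios have exact conditional binomial intervals from scipy 1.17.1. The calculation of the ratio and its interval was run on simulated Poisson counts with known changes. Those counts held no variation between cells, mice or libraries, so the run cannot speak to such variation. Members, gene lists and tests were chosen with earlier results of these data known. Members named were the 8 highest and 8 lowest in UMIs, the 8 with the highest and 8 with the lowest median log2 ratio less the sum, the 8 most and 4 least variable across classes among those with at least 500 UMIs, the paralogue pairs, the stalk proteins, Rpsa, Rps27a and Rps6; others were named after their values were seen, and 1 member that the rule names is not reported here. Alternatives changed clustering, cell filters, totals, weights, UMI minimum and fold, and also left out the 9 members.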

Additional observations from a re-analysis of the deposited data

Results flagged for a closer look

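The summed ribosomal protein share was higher in the RHS library in melanocyte-like cells (ratio 1.11) and lower in basophil-like cells (ratio 0.822), the highest and the lowest of the 19 classes, in opposite directions under the same contrast. The difference between these classes was not tested, with 1 library per group. In basophil-like cells the median share per cell went from 4.88% to 4.04%, the same direction as the pooled ratio, and in melanocyte-like cells it went from 12.8% to 12.3%, the opposite one.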

How the results depend on the processing

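No paired analysis was possible because each group is 1 library. Over the settings that re-clustered the cells, moved the cell filters or changed the totals, the share over all kept cells stayed lower in the RHS library. Its ratio was 0.901 at no more than 10% mitochondrial UMIs, 0.895 without mitochondrial UMIs in the total, 0.885 without member UMIs in the total, 0.974 with every cell weighing the same and 0.962 in cells of 1500 to 6000 UMIs. Leaving out the 9 members lower in most classes, an alternative chosen after seeing the data, gave 0.924, 12 classes higher in place of 7, a median log2 ratio over classes of 0.024 in place of -0.019, and 23 pairs past the fold in place of 172. With every cell weighing the same 4 classes were higher. Pairs past the fold were 287 at 1.25-fold and 111 at 2-fold. The highest over the lowest class in the control was 6.28 with called doublets kept and 8.40 without member UMIs in the total. In cells of 1500 to 6000 UMIs it was 3.99, with mast-like cells (5.09%) as the lowest class counted. Neutrophil-like cells, the lowest class in the main analysis, had too few cells there (45 control and 28 RHS) and were left out. Their control share in that range was 4.11%, so 3.99 rests on another set of classes than the main value. The log2 ratio of the summed share changed sign in keratinocyte-like cells (-0.12 at resolution 0.5, -0.12 at 2.0, -0.11 with doublets kept, -0.077 at 10% mitochondrial UMIs, -0.019 at 1500 to 6000 UMIs), cDC2-like cells (0.0088 with members allowed among the variable genes, of which 0 were chosen, 0.0018 at 500 genes per cell), endothelial-like cells (0.020 with equal cell weights, 0.058 at 1500 to 6000 UMIs, 0.024 without the 9 members), melanocyte-like (-0.022) and regulatory T-like cells (-0.0034) with equal cell weights, gamma-delta T-like cells (0.0099 at 1500 to 6000 UMIs) and the mixed innate lymphoid and T-like class (0.0077 without the 9 members). Classes whose ratio was near 1 also changed sign: neutrophil-like cells kept theirs in 5 of 11 alternatives (-0.32 to 0.040), the mixed cDC1 and cDC2-like class in 5 of 7, macrophage-like cells in 10 of 12, and mast-like and mural-like cells in 11 of 12 each. In all 12 of 19 classes changed sign under at least 1 alternative. The mixed innate lymphoid and T-like class and mast-like cells did so only without the 9 members. Langerhans-like, NK-like, alpha-beta T-like, basophil-like, fibroblast-like, migratory DC-like and monocyte-like cells did not change sign. The cause was not tested. For fibroblast-like cells the alternatives did not include cells of 6000 UMIs or more, where the ratio was 0.997 (0.981 to 1.013).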

Other observations

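Some ribosomal proteins are encoded by genes outside the symbol rule. Fau, which encodes Rps30 fused to a ubiquitin-like protein, was at 177 CPM among control cells and 123 among RHS cells. Rpl36al, a copy of Rpl36a, was at 235 and 236 CPM, where Rpl36a was at 1169 and 1056. Rps27rt was at 23.2 and 18.7 CPM. The annotated pseudogenes named for a member had at most 14.8 CPM, for Rpl10-ps3.

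In nuclei of the sympathetic ganglia, a library prepared with another chemistry and from nuclear RNA, the 83 members took 0.584% of the UMIs of 4509 nuclei, with a median of 0.442% per nucleus. No comparison with skin was made.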
